A study of Mus musculus with 12 samples.

Results

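Loss of the histone demethylase Kdm3a was measured as 1 effect over both sexes: 6 arrays of homozygous mutant embryos, 3 XX and 3 XY, were set against 6 arrays of heterozygous control embryos, 3 XX and 3 XY, which together are all 12 arrays of the series. XX embryos lack Sry, the switch gene of testis development on the Y chromosome. Averaging over XX and XY gives the mean of the mutant effects measured with and without that gene. A change in XY alone can pass in this average, so a pooled call does not by itself show an effect independent of Sry. The cells were somatic cells of the mouse gonad at embryonic day 11.5, when the gonad is still bipotential. All groups carried a transgene that puts CD271 on the surface of cells that use Nr5a1 regulatory sequence, and cells of the gonads and mesonephroi of a single embryo were purified by that surface protein, about 40000 of some 200000 collected. The labels call the gene Jmjd1a. The controls carry 1 mutant allele, so the comparison is between heterozygous and homozygous embryos, and no wild-type embryos are among the groups. The gate selects cells with an active Nr5a1 transgene, which can include adrenal precursors as well as gonadal cells. Each array is 1 embryo; the sources used here do not name litters, so embryos of a group may share a mother.

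Kdm3a removes mono- and dimethyl marks from lysine 9 of histone H3, marks that are placed by the Ehmt1 and Ehmt2 methyltransferases and are found at silent genes. Loss of the demethylase in mice is known for sex reversal of XY animals through low Sry, and for defects of spermatogenesis and of energy metabolism. The label of gonadal somatic cells was met by its defining markers: Wt1, Gata4, Lhx9, Emx2 and Nr5a1 were well above background on every array. In limma, 0 of these 5 passed the test between genotypes (1 at an unadjusted p below 0.05), and their summed level, in multiples of the array's 75th percentile, ran from 32.1 to 55.5 in controls and from 35.4 to 62.5 in mutants. Markers of neighbouring cells were summed in the same way. Those of mesonephric epithelium ran from 2.20 to 6.56 in controls and 2.47 to 12.8 in mutants. Those of mesenchyme ran from 83.7 to 120 and 107 to 134, and those of erythroid cells from 33.5 to 866 and 23.5 to 499. Of these 26 measured markers 0 were called in limma, with 10 at an unadjusted p below 0.05, beside 4530 of all 19178 features. At that p, 5 mesonephric markers were higher and 1 lower in mutants, and 4 mesenchyme markers higher and 0 lower. The median change (mutant minus control, log2) of mesonephric markers was -0.11 in XX and 1.00 in XY, and that of mesenchyme markers 0.27 and 0.31. Their part in the results was not tested. In RNA from a purified population, fewer cells of a type and less RNA per cell cannot be told apart.

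Levels below are in log2, with 0 at the array's own 75th percentile of signal. A change is the mutant minus the control level on that log2 scale, averaged over XX and XY, with the standard error (SE) of a limma fit of the 4 groups (n = 6 mutant and 6 control arrays). A feature was called where its Benjamini-Hochberg adjusted p was below 0.05 over the 19178 features tested, of which 13264 are named genes. Between 58.0% and 65.2% of the spots of an array were well above background, and this percentile, a measure of brightness, spanned 142.9 to 299.5. One array stood apart from its group. On the first principal component, which held 42.8% of the variance over 19119 features, the third control XX array had a loading of 0.33, within the range of the mutant XX arrays (0.14 to 0.49), whereas the other 5 control arrays lay between -0.44 and -0.08 and the mutant XY arrays between -0.26 and 0.15. It shared a slide with the mutant XX arrays and was about as bright as they were, at 280 against 268.3 to 299.5. Its Kdm3a level of 2.96 was that of a control. Values include this array unless stated. Counts without it, for the gene lists described in the text, stand together at the end of the results.

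**Figure D1:**
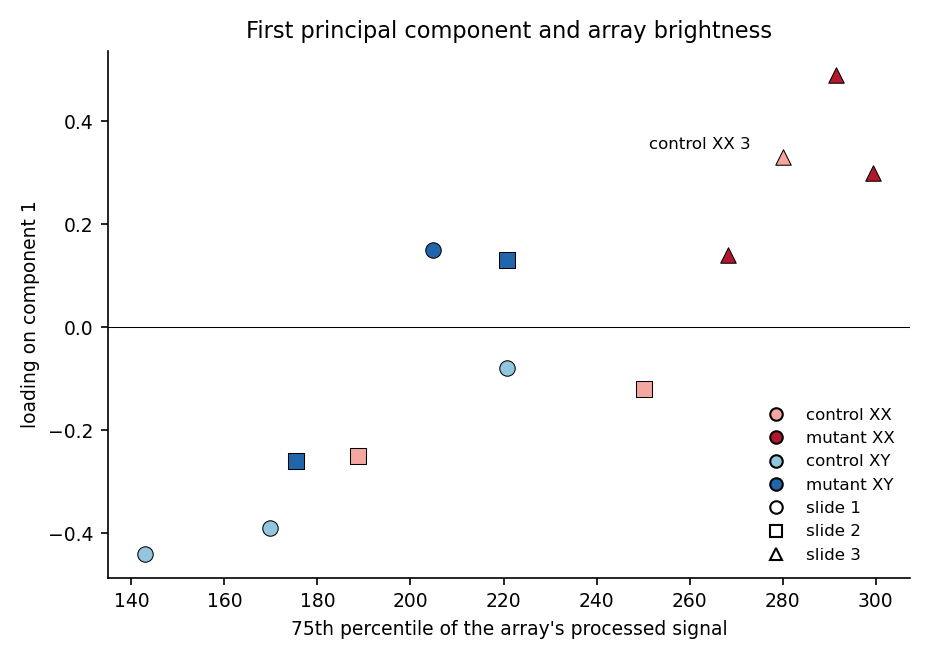
Loading of each of the 12 arrays on the first principal component (vertical axis, no unit) against the 75th percentile of its processed signal (horizontal axis, scanner units); colours mark the 4 groups and symbols the 3 slides. The third control XX array, at 280 and 0.33, lies among the 3 mutant XX arrays of its slide.

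Kdm3a itself was lower on every mutant array. Its level was 2.70 at lowest, 2.88 at the median and 3.03 at highest in the 6 controls, and 0.43, 0.72 and 1.04 in the 6 mutants, so the genotypes did not overlap. This probe stayed well above background on all 6 mutant arrays. The change was -2.11 ± 0.10, or 4.32-fold (adjusted p = 1.26e-06), -2.27 in XX and -1.95 in XY. A second Kdm3a probe fell further, from a median of -2.67 in controls (range -2.84 to -2.48) to -7.01 in mutants (range -7.35 to -6.76), where no array showed it well above background. The sources used here do not say whether either probe lies in the deleted part of the gene, so the checks bear on transcript signal at the probes alone. The Y-linked genes Uty, Kdm5d, Ddx3y and Eif2s3y, and Xist, were each well above background on 3 control and 3 mutant arrays, the XY arrays for the Y-linked genes and the XX arrays for Xist, as labelled.

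Over both sexes, 214 features were called, 1.12% of those tested. Of these, 189 were lower in the mutants (0.986%) and 25 higher (0.13%); 151 and 23 of them are named genes. The median change was -0.95 among the called falls and 0.65 among the called rises, against -0.05 over all features. The falls were also the larger changes: 85 exceeded 2-fold, against 6 of the rises. Among the 214, mutant and control arrays did not overlap within XX nor within XY for 191, beside 570 (2.97%) of all features tested. Without the third control XX array the count was 4826, with 2243 higher and 2583 lower, and the 214 were all among them. Leaving out control XX 1, control XX 2, control XY 1 or mutant XY 3 gave 140, 126, 136 and 138 calls, and leaving out another array gave between 144 and 287. The rises were 9 to 13 without control XX 1 or 2, control XY 1 or 2 or mutant XY 3, and 14 and 15 without mutant XX 2 or 3; the falls were 117 and 125 without control XX 2 or control XY 1. The 214 features moved in the same direction under every one of these fits. Each fit reuses arrays that chose the 214, so this is no separate support.

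A stricter requirement was that a feature pass in XX and in XY each on its own, with the same sign, judged by the larger of both sex-specific p-values after adjustment over all features. It was met by 31 features (0.162%), all among the 214: 30 lower (0.156%) and 1 higher (0.00521%), the single riser being Gpat2. The named ones included Kdm3a, the muscle genes Myl7, Myl1, Myl3, Tnni3 and Hspb2, the digestive enzymes Cpa1, Pnlip, Pnliprp1 and Pnliprp2, the interferon-induced genes Ifi27 and Ifitm2, and Tph2, Vav3, Apoc1, Capg, Gstm2, Plac1, Atp8b3, Ak7, Sprr2g, Gm8579, Gm9758, 2210407C18Rik, 6030498E09Rik, 1810065E05Rik and Gpat2, a list that goes beyond the naming rule. The count was 20 without control XX 1 and without control XX 2, 17 and 19 without control XY 1 or 3, 19 and 16 without mutant XY 2 or 3, and 21 to 24 without another array. Of the 214, 112 were called in neither sex alone. The test of the difference between the XY and the XX effect called 0 features in limma, with 701 at an unadjusted p below 0.05, 26 of them among the 214. This miss of the threshold does not show that the effects were equal in the sexes.

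**Figure D2:**
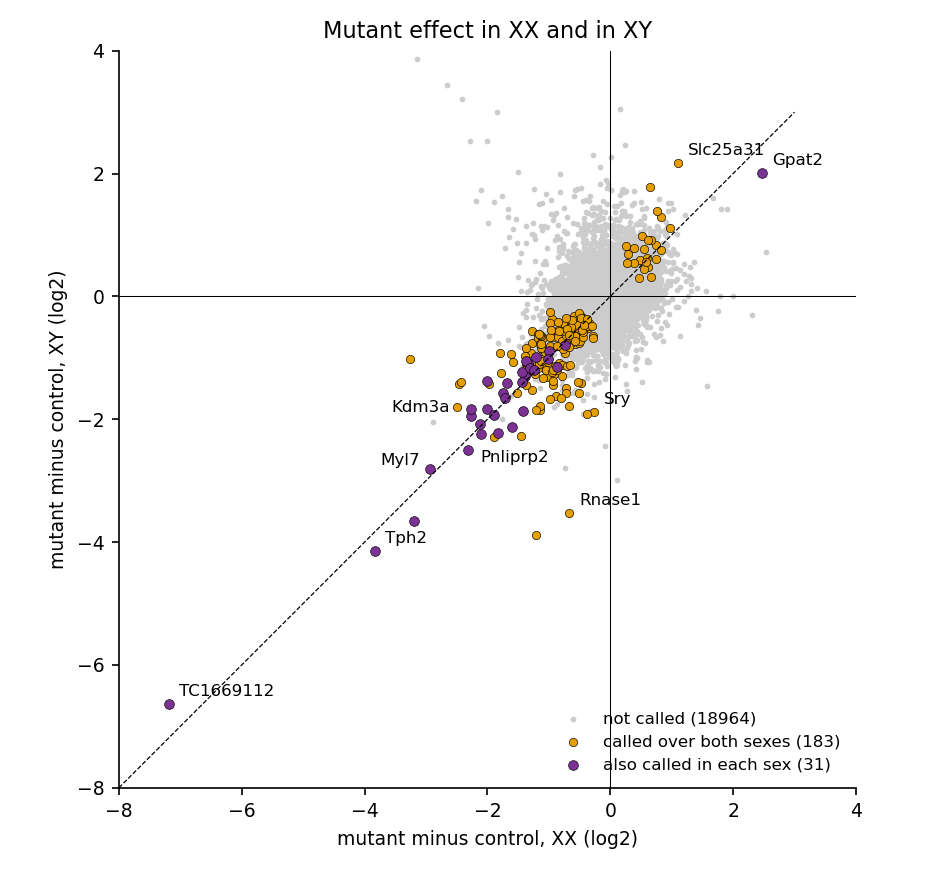
Change in XX (horizontal axis) against change in XY (vertical axis), both mutant minus control in log2, for the 19178 features tested. Orange points are the 183 features called over both sexes alone, purple points the 31 that also passed in each sex, grey points were not called, and the dashed line marks equal changes; Rnase1 and Sry lie off that line, with larger falls in XY.

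The called genes differed from the other genes measured in what surrounds their start sites. Promoter sequences of RefSeq (GRCm38.p6, 250 bases before to 50 after the start) matched 119 of the 151 named genes that fell and 19 of the 23 that rose. The falling genes had a median of 5 CpG dinucleotides in these 300 bases over 148 promoters, the rising genes 11 over 23 promoters, and all tested genes 20 over 13464. Promoters with 10 or fewer CpG made up 77.0% of those of falling genes, 47.8% of those of rising genes and 25.8% of all tested. Among 6190 promoters of genes whose control level lay within the middle quartiles of the falling genes, the median was 20 and the share 24.2%. Genes that lie side by side or belong to 1 family are not independent in this count. Sequences are shown as examples for 3 falling genes, from muscle, digestive enzymes and the interferon response, and for the gene that rose furthest. Each CpG is in capitals:
Myl7, chr11:5898733-5899032, reverse strand: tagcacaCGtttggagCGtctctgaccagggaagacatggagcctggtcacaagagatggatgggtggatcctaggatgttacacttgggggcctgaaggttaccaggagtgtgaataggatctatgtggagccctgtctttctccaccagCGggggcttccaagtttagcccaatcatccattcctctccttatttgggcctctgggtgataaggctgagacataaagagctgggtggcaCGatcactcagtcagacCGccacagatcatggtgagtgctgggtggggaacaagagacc
Cpa1, chr6:30638968-30639267, forward strand: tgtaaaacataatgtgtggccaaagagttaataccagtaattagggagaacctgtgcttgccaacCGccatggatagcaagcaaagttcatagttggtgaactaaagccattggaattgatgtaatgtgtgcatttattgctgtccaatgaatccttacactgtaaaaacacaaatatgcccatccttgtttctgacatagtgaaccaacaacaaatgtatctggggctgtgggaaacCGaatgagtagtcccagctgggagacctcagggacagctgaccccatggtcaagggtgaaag
Oas1a, chr5:120907476-120907775, reverse strand: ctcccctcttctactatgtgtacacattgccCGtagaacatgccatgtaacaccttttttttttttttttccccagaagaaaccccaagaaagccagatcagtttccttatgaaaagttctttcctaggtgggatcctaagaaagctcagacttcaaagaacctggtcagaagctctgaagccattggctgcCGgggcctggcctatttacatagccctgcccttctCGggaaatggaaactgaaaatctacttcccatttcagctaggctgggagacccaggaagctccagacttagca
Gpat2, chr2:127424949-127425248, forward strand: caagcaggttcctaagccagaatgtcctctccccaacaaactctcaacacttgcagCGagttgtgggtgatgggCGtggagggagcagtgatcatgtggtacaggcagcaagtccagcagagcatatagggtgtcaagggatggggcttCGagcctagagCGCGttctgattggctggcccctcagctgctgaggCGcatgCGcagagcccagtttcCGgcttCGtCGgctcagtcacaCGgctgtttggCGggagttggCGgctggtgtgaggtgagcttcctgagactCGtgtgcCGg
They hold 5, 2, 3 and 15 CpG. Other falling genes held more than these 3, such as Tph2 with 9 and Pnlip and Smtnl1 with 11 each. The examples therefore differ more than the sets do. The interferon-stimulated response element, searched as GAAA, any 2 bases and GAAA again on both strands, was present in 12 of the 148 promoters of falling genes (8.11%), in 0 of the 23 of rising genes, and in 2.82% of the promoters of tested genes. The promoter of Oas1a above holds it. The E2F-type letters TCCCGC were present in 11.5% of the promoters of falling genes, 34.8% of those of rising genes and 34.0% of those tested, and the letters TATAAA in 16.2%, 8.70% and 7.84%. TCCCGC and CpG counts overlap, since these letters contain a CpG. Such matches describe letters and were not measured as binding.

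**Figure D3:**
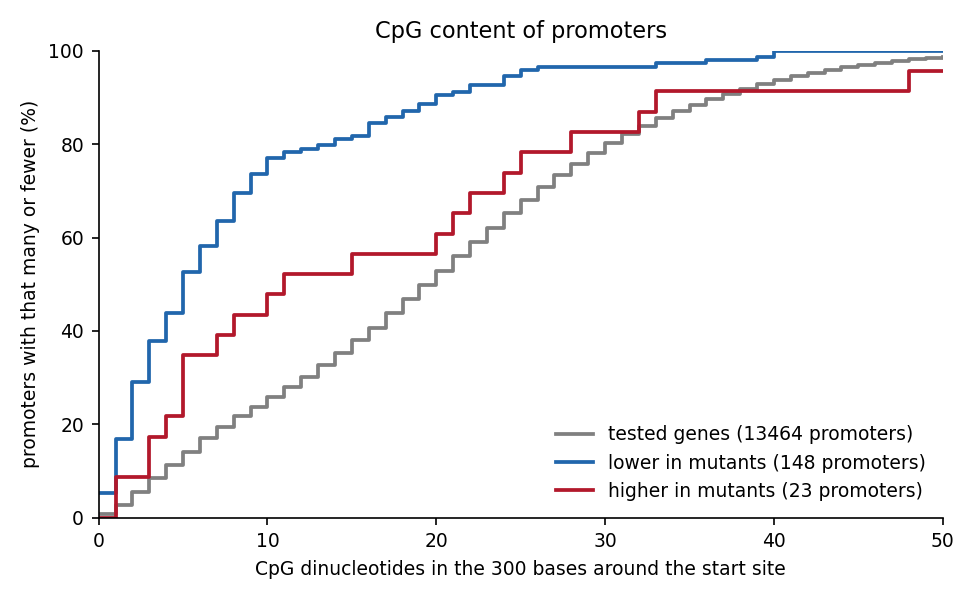
Cumulative share of promoters (vertical axis, percent) with a given number of CpG dinucleotides or fewer in 300 bases around the start site (horizontal axis, drawn to 50), for all tested genes (grey), genes lower in mutants (blue) and genes higher in mutants (red). The blue line reaches 77.0% at 10 CpG, where the grey line is at 25.8%.

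The gene lists that follow were chosen with earlier results of these data known. Their counts called, medians and rank describe the listed members and are no test of a gene class. Of 21 sarcomere genes of cardiac and skeletal muscle listed, 16 were measured and 6 were called, all lower. Of all features 0.986% were called lower. The change was negative in 14 of the 16, with a median of -0.52 beside -0.05 over all features. The median was -0.30 with normexp, another background correction, and -0.28 with no filter on dim probes. Myl7, the atrial myosin light chain, had levels of 3.59, 4.15 and 4.64 (lowest, median, highest) in controls and 0.88, 1.24 and 1.70 in mutants. Its change was -2.87 ± 0.15, or 7.32-fold (adjusted p = 4.23e-06), with no overlap. Myl1, a light chain of fast skeletal muscle, went from a median of 2.85 (2.55 to 3.14) to 0.94 (0.59 to 1.22), a change of -1.92 ± 0.13 (adjusted p = 2.59e-05). Myl3, the ventricular and slow skeletal light chain, changed by -1.68 and Tnni3, cardiac troponin I, by -1.66. A second Myl3 probe, well above background on all 6 control and 6 mutant arrays, changed by only -0.29 ± 0.19. It was not called when every probe was tested separately (adjusted p = 0.339 in limma). A second Tnni3 probe changed by -1.67. Smtnl1, a smoothelin-like regulator of contraction, changed by -1.94 ± 0.17, with -2.45 in XX and -1.43 in XY, a difference between sexes that was not called. Tnnt1, slow skeletal troponin T, changed by -0.74. The heavy chains Myh6 and Myh7, at -0.66 and -0.57, did not pass (adjusted p = 0.128 and 0.102), nor did the actins Actc1 and Acta1, at 0.20 and 0.13. Muscle identity was not measurable at this signal: Myod1, Myf5, Myog, Myf6, Pax7 and Ckm, the 6 skeletal muscle markers listed, and Nkx2-5 of the heart were not well above background throughout any group. The summed level of the 6 cardiomyocyte markers measured, which include Tnni3, was 2.77 to 3.55 in controls and 1.45 to 2.01 in mutants; its part in the result was not tested. In smooth muscle, where 6 of 11 genes measured had positive changes and the median was 0.0078, 1 was called, the regulatory light chain Myl9, from a median of 7.34 to 6.79 (change -0.61 ± 0.08, adjusted p = 0.00400), while Acta2, at 4.33 in controls and 4.32 in mutants, and Tagln and Myh11 were not called.

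**Figure D4:**
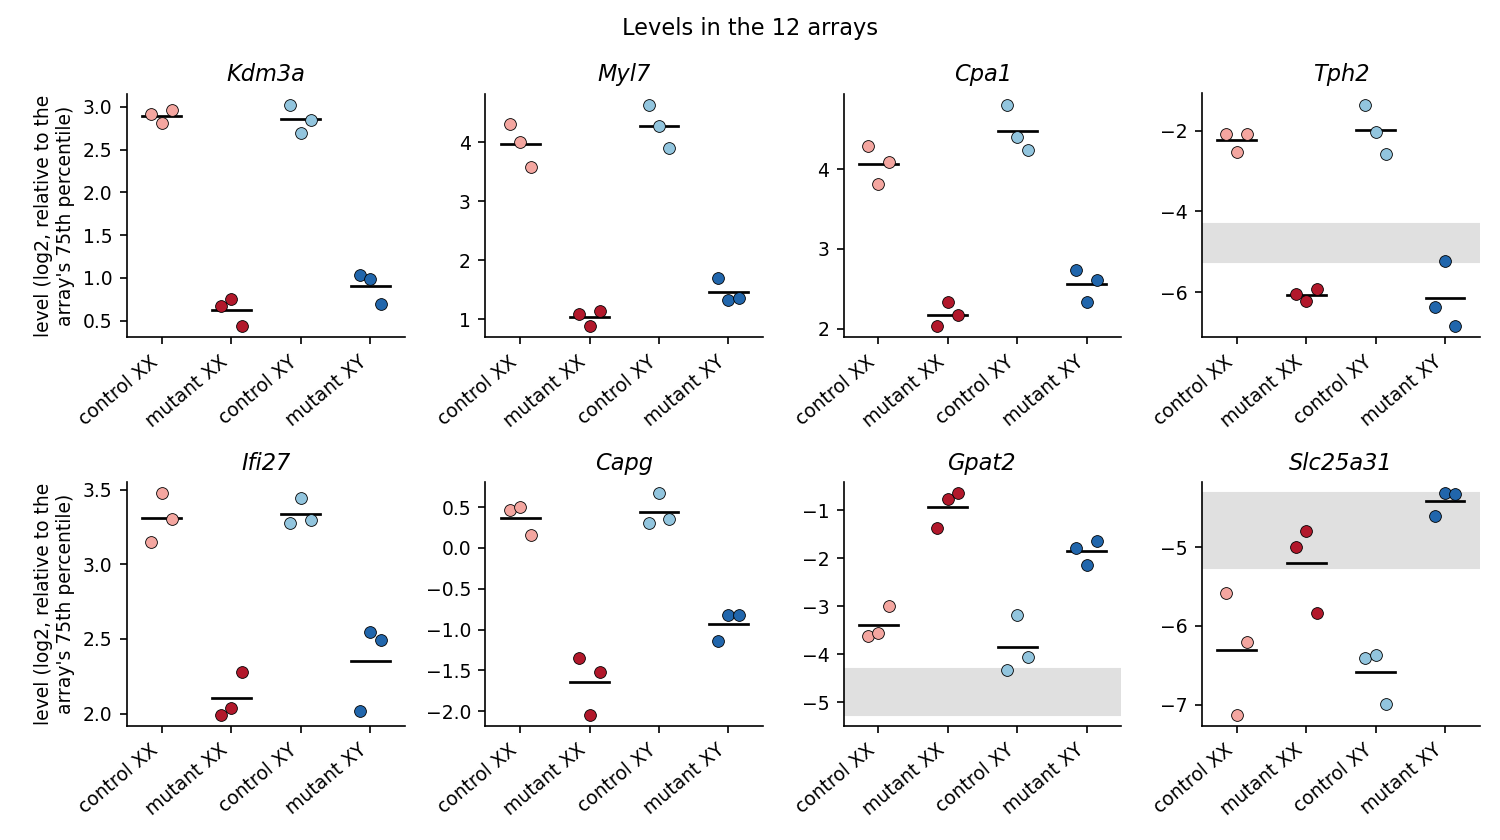
Level of 8 genes (vertical axes, log2 relative to the 75th percentile of the array, scaled separately) on the 12 arrays, as 3 points a group with a bar at the mean of the group. The grey band is the range over arrays of the lowest level well above background; mutant levels of Kdm3a, Myl7, Cpa1, Tph2, Ifi27 and Capg lie below all control levels in both sexes, and those of Gpat2 above, while for Slc25a31 the lowest mutant level lies below the highest control level.

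Digestive enzymes of the exocrine pancreas formed the list with the lowest median, -1.38 over 8 measured of 14 listed. Of these 8, 5 were called, all lower, beside 0.986% of all features called lower. The list was chosen with earlier results of these data known, so its rank among the lists is no test. With no filter on dim probes the median was -0.60. Pnliprp2, a lipase related to pancreatic lipase, went from 0.61, 0.94 and 1.19 in controls to -1.79, -1.51 and -1.18 in mutants, a change of -2.41 ± 0.12, or 5.30-fold (adjusted p = 2.49e-06). Cpa1, carboxypeptidase A1, went from 3.82, 4.27 and 4.81 to 2.03, 2.33 and 2.73, a change of -1.91 ± 0.13 (adjusted p = 2.59e-05). In neither enzyme did the genotypes overlap. Pnliprp1 changed by -1.54 and Pnlip, pancreatic lipase, by -1.22. Rnase1, pancreatic ribonuclease, changed by -2.10 ± 0.25 (adjusted p = 0.00177), but mostly in XY: its levels were -3.60 to -3.19 in control XX, -4.44 to -3.88 in mutant XX, -0.36 to 0.69 in control XY and -4.05 to -2.76 in mutant XY. The difference between sexes had an unadjusted p of 0.000131 and an adjusted p of 0.823. Cel, Ctrb1 and Cela1 were measured at -2.84, -1.99 and -3.65 in controls and were not called. Of the acinar cell markers, Ptf1a, the transcription factor that defines acinar cells, and Amy2a5 were not well above background throughout any group; the summed level of the 4 measured markers, among them Cpa1 and Pnliprp1, was 15.9 to 31.0 in controls and 4.86 to 7.64 in mutants, and its part in the result was not tested.

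Of 13 interferon-induced genes listed, 8 were measured and 3 were called, all lower: Ifi27, Oas1a and Usp18. Of all features 0.986% were called lower. All 8 had negative changes, with a median of -0.93, which was -0.41 with normexp and -0.59 with no filter on dim probes. Ifi27 went from 3.15, 3.30 and 3.48 in controls to 1.99, 2.16 and 2.55 in mutants, a change of -1.10 ± 0.11 (adjusted p = 0.000684), without overlap. Oas1a, a 2'-5'-oligoadenylate synthetase, went from -3.26, -2.76 and -2.60 to -4.46, -3.91 and -3.53, a change of -1.10 ± 0.16 (adjusted p = 0.00691). Usp18, which removes Isg15 from proteins, changed by -1.25 ± 0.21 (adjusted p = 0.0156); its highest mutant level and lowest control level were both -4.40, and it was well above background on 4 of 6 mutant arrays. Without control XX 2 its adjusted p was 0.0569. Isg15 itself, at -1.19, and Rsad2, Bst2 and Oasl2, at -0.75, -0.50 and -0.45, did not pass. Chosen after their values were seen, 10 further called genes are known as interferon-induced or lie in such families: Gbp2 (-1.34), Gbp3 (-1.36), Ifi27l2a (-1.17), Tgtp1 (-1.04), Ifitm2 (-0.76), Oas1f (-0.70), Ifitm3 (-0.68), Oas1c (-0.68), Trim21 (-0.63) and Parp10 (-0.45). They were picked for having fallen and give no count of how often such genes fell. Among 5 macrophage and leukocyte markers measured, 0 were called in limma (0 at an unadjusted p below 0.05), with a median change of 0.15. Just 1 of the 5 was well above background in every control, and 3 were in every mutant, so a change could be missed. Their summed level ran from 0.292 to 1.02 in controls and from 0.216 to 0.898 in mutants. Ptprc was not well above background throughout any group. The part of such cells in the falls was not tested.

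With 1 probe taken for each gene, the largest measured fall of a named gene was that of Tph2, the neuronal tryptophan hydroxylase that begins serotonin synthesis, although the second Kdm3a probe fell further. It lay at -2.59, -2.08 and -1.36 in controls and was above background on 0 of 6 mutant arrays, which gave a difference of at least 7.39-fold (measured change -3.99 ± 0.27, adjusted p = 2.78e-05). It was the 1 called gene of 7 measured in the serotonin and catecholamine list, beside 0.986% of all features called lower. Ddc, the decarboxylase of the same path, was at -0.23 and Slc6a4, the serotonin transporter, at 0.03, neither called. Vav3, a guanine nucleotide exchange factor, went from -1.17, -0.96 and -0.72 to -3.29, -3.08 and -3.00, a change of -2.17 ± 0.09, or 4.50-fold (adjusted p = 8.9e-07), with the smallest SE among the large falls named here. Apoc1, an apolipoprotein, went from 4.11, 4.57 and 4.93 to 1.98, 2.46 and 3.23, a change of -2.05 ± 0.16 (adjusted p = 7.13e-05). Sprr2d, a small proline-rich protein of the cornified envelope, changed by -2.14 ± 0.25, Cstdc1, a cystatin domain gene, by -2.09 ± 0.33, and Ccdc182 by -1.91 ± 0.19. Cstdc1 was above background on 1 of 6 mutant arrays. Near-identical members of the Sprr2, Oas1, Gstm and cystatin families can share signal on a probe, so the split within these families is uncertain. An array feature without a gene name here, TC1669112, had the largest change of all features tested: it was above background on all 6 control arrays (-0.37 to 0.20) and on no mutant array, a difference of at least 30.4-fold. Another, ENSMUST00000070879, changed by -3.43 ± 0.15.

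Of 13 glutathione genes measured 2 were called, and of 9 steroidogenic and adrenal genes 1, all lower, beside 0.986% of all features called lower. Gstm2, which conjugates glutathione, went from a median of 6.01 to 4.97 (change -0.86 in XX and -1.14 in XY, pooled adjusted p = 0.000165) and Gstm6 from -0.62 to -1.57 (change -0.94). The change was negative in 11 of the 13, with a median of -0.29. Star, which carries cholesterol into mitochondria, was the 1 called of the steroidogenic and adrenal list, whose median was -0.52 (change -0.60 ± 0.11, adjusted p = 0.0204), and its levels overlapped, at -0.66, -0.19 and 0.27 in controls and -1.19, -0.81 and -0.24 in mutants. Its call was lost in 6 of the 12 fits that left out 1 array, those without control XX 2, control XY 2, mutant XX 1 or 3, or mutant XY 1 or 3, with a highest adjusted p of 0.0703 in limma. Mc2r, the corticotropin receptor, and Cyp11a1, which cleaves the cholesterol side chain, were at -0.68 and -0.54 and did not pass. The summed level of the 4 adrenocortical markers measured, Star, Mc2r, Cyp11a1 and Mrap, was 2.08 to 2.82 in controls and 1.45 to 1.98 in mutants; its part in the result was not tested.

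The largest rise was that of Gpat2, the 1 gene called higher in each sex on its own. The number of rises, 25, rested on the third control XX array, without which it was 2243. Gpat2, a mitochondrial acyltransferase of male germ cells and piRNA biogenesis, lay at -4.33, -3.59 and -3.00 in controls and at -2.15, -1.50 and -0.64 in mutants, without overlap. Its change was 2.24 ± 0.21, or 4.71-fold (adjusted p = 0.000412), 2.47 in XX and 2.00 in XY; with normexp the change was 0.87, still called. Slc25a31, the testis-specific ADP/ATP carrier, was well above background on 0 control and 5 mutant arrays, with measured levels of -7.13, -6.39 and -5.58 in controls and -5.83, -4.70 and -4.31 in mutants (change 1.63 ± 0.26, adjusted p = 0.0117). These levels lie at the limit of the arrays and give no fold, and with normexp its sign turned. These were 2 of the 9 germline genes measured, beside 0.13% of all features called higher. Slc25a31 passed the filter on dim probes only through a mutant group, where it is high. Its place in this count is therefore no support for a rise of the list. Beyond Gpat2 and Slc25a31, the germ cell RNA helicase Ddx4 was at 0.97 (adjusted p = 0.0873 in limma), and the median of the list was 0.14. That median turned to -0.13 when only genes well above background on all 12 arrays were kept, to -0.093 with no filter, to -0.10 with normexp and to -0.020 with brightness as a covariate. Another 12 listed germline genes, among them Dazl, Mael and Sycp1, were not well above background throughout any group. Germ cell markers were measured beside them: 0 of 7 were called (2 at an unadjusted p below 0.05), 5 of 7 had positive changes, and their summed level was 1.01 to 1.68 in controls and 1.37 to 2.05 in mutants; its part in the rise was not tested. The other rises named by the rule were between 0.41 (Amer2) and 1.05 (Defb7), the latter a defensin; they include Tchh (0.79), Col9a2 (0.79), Zfp772 (0.68), En2 (0.65), Ntng1 (0.62), Tmem59l (0.55), Cdh13 (0.54), Rrs1 (0.50), Phactr1 (0.49) and Kcnab2 (0.47). Of the 14 rises, Gpat2, Tchh, Zfp772, Cdh13 and Phactr1 were called whichever array was left out. A second Zfp772 probe, well above background on all 6 control and 6 mutant arrays, did not rise. Its change was -0.02 ± 0.09 (adjusted p = 0.897 in limma with every probe tested separately). A second Phactr1 probe changed by 0.62.

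Genes that pattern the gonad before sex determination were not called in either direction. For the counts at an unadjusted p below 0.05 given here, the base over all features was 4530 of 19178 in limma. Of 16 bipotential gonad genes 15 had positive changes, with a median of 0.24 over both sexes, 0.25 in XX and 0.31 in XY, and 0 were called (4 at an unadjusted p below 0.05, all higher), with Cbx2, a Polycomb protein, at 0.52 (adjusted p = 0.166) and Igf1r at 0.36 (adjusted p = 0.177). In the testis pathway 3 of 14 were called, all lower, beside 0.986% of all features, but the XX and XY medians were 0.02 and -0.80. Sry was one of them: its levels were -3.80 to -2.94 in control XY, -5.44 to -5.09 in mutant XY and -7.58 to -6.92 in XX of either genotype. It was well above background on the 3 control XY arrays and on no other. In XY this is a difference of at least 2.66-fold (measured change -1.89). The pooled change of -1.08 averages this with -0.27 in XX, where no Sry gene is present and the probe reads background, and so is no shared effect. Cst9, a cystatin, fell in the pooled test by 1.22 ± 0.19 (adjusted p = 0.0115; -0.80 in XX, -1.65 in XY). Ptgds, which makes prostaglandin D2, changed by -1.46 ± 0.29 (adjusted p = 0.0417; -1.14 in XX, -1.78 in XY), and its call was lost in 9 of the 12 fits that left out 1 array, all but those without control XX 3, mutant XY 1 or mutant XY 2 (highest adjusted p = 0.115, without control XX 2). Sox9, the target of Sry that drives Sertoli cell fate, changed by 0.41 in XX and by -1.05 in XY; its pooled value of -0.32 was not called, and the difference between sexes had an unadjusted p of 0.000170 and an adjusted p of 0.823. Of 10 ovary pathway genes 0 were called in limma (1 at an unadjusted p below 0.05), with a median of 0.17.

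**Figure D5:**
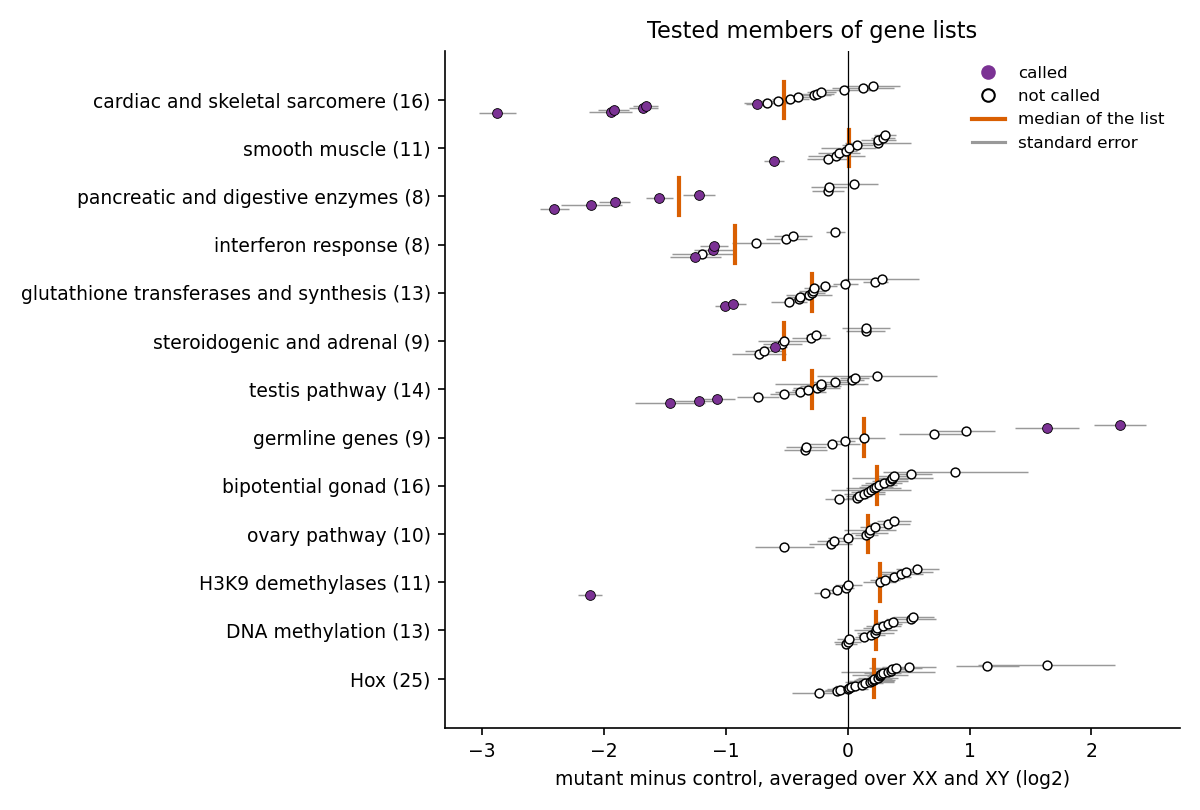
Change of each tested member of 13 gene lists (horizontal axis, mutant minus control in log2, averaged over XX and XY), with its standard error in grey; filled points were called, open points were not, orange lines mark the median of a list, and the number of members is in brackets. Called members of the sarcomere, digestive enzyme and interferon lists lie to the left of 0, the 2 called germline genes to the right. The lists were chosen with earlier results of these data known.

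With all arrays, Kdm3a was the 1 called of 11 H3K9 demethylases; its paralog Kdm3b was at 0.57 ± 0.17 (adjusted p = 0.145) and Jmjd1c, the third member of the family, at 0.01. Counts at an unadjusted p below 0.05 in limma follow each count of 0 in brackets. Over all features that count was 4530 of 19178. Of 13 H3K9 methyltransferase and HP1 genes 0 were called (3), Ehmt2 being at 0.30 and Ehmt1 at 0.17. Of 13 DNA methylation genes 0 were called (4), although 12 had positive changes, with a median of 0.23; Dnmt1, the maintenance methyltransferase, was at 0.54 (adjusted p = 0.155). Among 13 genes reported as Kdm3a targets in other cells, such as Tnp1 and Prm1 of spermatids, Ppara, Ucp1 and Acadm of energy metabolism and Acta2 and Tagln of smooth muscle, 0 were called (2) and the median was -0.02. Of 25 Hox genes 0 were called (6, all higher), of 16 fatty acid oxidation genes 0 (5), of 15 hypoxia and glycolysis genes 0 (3) and of 13 cell cycle genes 0 (4). For Dnmt1, Uhrf1, Trim28 and Hadhb the third control XX array stood apart from the other controls, on the side of the mutants.

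Position along the chromosomes was also examined. Among the 50 tested genes nearest to Kdm3a on chromosome 6, 25 on each side, 2 were called (4%), Capg and St3gal5, beside 174 of 13264 tested genes with a position (1.31%). Capg, an actin-capping protein 16 tested genes from Kdm3a, went from 0.15, 0.41 and 0.67 to -2.05, -1.25 and -0.82, a change of -1.69 ± 0.14, or 3.23-fold (adjusted p = 9.85e-05). St3gal5, a sialyltransferase 6 genes from Kdm3a, went from 4.39, 4.61 and 4.82 to 4.97, 5.13 and 5.48, a change of 0.57 ± 0.11 (adjusted p = 0.0333); its call was lost in 9 of the 12 fits that left out 1 array. For neither gene did the genotypes overlap. A mutant allele brings the flanking chromosome of its strain of origin with it, and the sources used here do not name the strains; the part of such flanking sequence in these values was not tested. On chromosome 6 as a whole 13 of 659 tested genes were called (1.97%), on chromosome 3 22 of 647 (3.40%) and on chromosome 7 23 of 1035 (2.22%). Called genes lay side by side: 35 of the 174 named ones (20.1%) had a called gene as their next tested neighbour, against 301 (2.30%) of the genes not called. They formed 16 runs, among them Pnlip, Pnliprp1 and Pnliprp2; Tnnt1 and Tnni3; Oas1c, Oas1f and Oas1a; Ifi27l2a and Ifi27; Cst11 and Cstdc1; S100a3 and S100a4; and Sprr2b, Sprr2d and Sprr2e. In 1 run the directions differed, with Vav3 lower (-2.17) and its neighbour Ntng1 higher (0.62). Most runs join members of 1 gene family, whose probes may cross-hybridise.

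The arrays lay on 3 slides, and genotypes can be compared within a slide only on slide 1, with 3 control XY arrays and 1 mutant XY array, and on slide 3, with 1 control XX and 3 mutant XX arrays. In both comparisons 213 of the 214 called features (99.5%) and 34.4% of all features had the sign of the pooled change. These arrays are among those that chose the 214, and each comparison has 1 array on one side. With slide as a block in the fit, 58 features were called (0.302%), 3 higher and 55 lower, and 47 of the 214 were among them. The block value was -2.08 for Kdm3a, -2.57 for Myl7, -2.28 for Pnliprp2, -1.26 for Ifi27, -4.17 for Tph2 and 2.08 for Gpat2, all called. Of 44 called genes named by the rule, 22 were not called with the block. They were Usp18, Star, Pnlip, Gstm6, Myl9, Cstdc1, Cst9, Sry and Slc25a31, with block values of -1.22, -0.76, -1.03, -0.87, -0.52, -2.27, -1.19, -1.06 and 1.49, and 13 of the 14 largest rises, all but Gpat2.

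Normexp adds an offset of 50 to the signals before the logarithm, and with it 21 of the same 44 genes had a change over 1.5 times smaller or of the other sign. It was -1.01 for Tph2, -1.18 for Vav3, -1.05 for Rnase1, -0.64 for Smtnl1, -0.90 for Ccdc182, -1.08 for Myl3 and -0.42 for Oas1a, all still called. Cstdc1, at -0.42, Usp18, at -0.39, and Sry, at -0.34, were not called there. Myl7, Cpa1 and Ifi27 were at -2.66, -1.85 and -0.98.

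Without the third control XX array 25.2% of all features were called, and 8522 of 19178 were at an unadjusted p below 0.05 in limma. Called were 10 of 16 sarcomere genes, 5 of 8 interferon genes, 7 of 13 glutathione genes, 3 of 9 steroidogenic and adrenal genes, 5 of 14 testis pathway genes and 3 of 7 serotonin and catecholamine genes, all lower, and the same number of digestive enzymes, 5. Called higher were 3 of 9 germline genes, now with Ddx4, 6 of 13 DNA methylation genes, Dnmt1 and Uhrf1 among them, 3 of 13 H3K9 methyltransferase and HP1 genes, 5 of 11 H3K9 demethylases, Kdm3b among them, 4 of 16 bipotential gonad genes, 2 of 10 ovary pathway genes and 5 of 25 Hox genes. In cell cycle genes 4 were called higher and 2 lower of 13, in fatty acid oxidation 1 and 1 of 16, in hypoxia and glycolysis 3 higher of 15, and in smooth muscle 2 higher and 1 lower of 11. Of the reported Kdm3a targets 0 of 13 were called in limma (2 at an unadjusted p below 0.05). Among cell markers, 1 of 5 of gonadal somatic cells, 2 of 10 of mesonephric epithelium, 4 of 9 of mesenchyme and 1 of 7 of germ cells were called, all higher. Called lower were 3 of 6 cardiomyocyte markers (Tnnt2, Tnni3 and Myh7), 2 of 4 adrenocortical markers (Star and Mc2r) and 2 of 4 acinar markers (Cpa1 and Pnliprp1). These lower markers are also counted in the gene lists above. Of erythroid markers 0 of 7 and of macrophage and leukocyte markers 0 of 5 were called in limma, with 0 at an unadjusted p below 0.05 in either.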

How the data were processed

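Per the labels' protocols, RNA of CD271-purified cells from single embryos was amplified linearly, labelled with Cy3 and hybridised to 12 Agilent 1-colour arrays. Per the file headers, the scans were read with Feature Extraction 10.5.1.1 (array design 014868, header build mm9). The deposited intensity of a spot is its processed signal, background-subtracted and not scaled between arrays; per the file headers, median signals and local backgrounds are deposited as intensities too. Detection flags such as well above background are deposited as whole-number codes.

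The log2 processed signal minus the 75th percentile of its array was computed over 43379 non-control spots of 45018, and repeated spots of 245 probes were averaged, giving 41174 probes. Accessions named 27479 probes with 18749 symbols through RefSeq (GRCm38.p6, used for names, neighbours and promoters); 13695 kept the array's accession. Probes were kept where at least 1 of the 4 groups had them well above background throughout, and the probe of highest mean stood for a gene: 19178 features, of which 59 missed an array (0 of the called). Group means of all 12 arrays were fitted in limma 3.58.1 (R 4.3.3) with Benjamini-Hochberg adjustment at 0.05; the pooled effect weights the XX and XY differences equally. Slide is no term of this fit, and its p-values measure the spread among embryos of a group. All control XY arrays shared 1 slide and all mutant XX arrays another, so in these groups that spread holds no slide differences. Arrays of a slide were treated as independent, although the consensus correlation within slides in limma was 0.35. Of 39 other probes of called genes, 35 went the same way, and 17 were called when every probe was tested separately.

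The comparison and the gene lists were chosen with earlier results of these data known. Genes were named by rule: Kdm3a and sex-linked genes, the 14 largest falls and rises without overlap within either sex, called list members (the 2 of smallest p otherwise) and called genes among the 50 nearest Kdm3a; clone names and accessions were left out of the ranking. A few genes are not reported here. Where no array of a genotype was above background, the fold is a lower bound against the higher of the lowest level above background and the measured level. On simulated data of 19178 features with 50 changed at each size, the pooled test recovered 21, 43, 50 and 50 at 1.5-, 2-, 4- and 8-fold with 11 false calls. The test in both sexes recovered 4, 24, 43 and 50 with 0. The simulated noise was independent between features and arrays, and changes were equal in both sexes. It held no slide effect, shared component or outlying array, so these counts do not give the error rate in the measured data.

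Alternatives were quantile and normexp normalization (offset 50), other filters, every probe tested separately, slide, replicate number, brightness or array weights in the model, a 1.5-fold threshold, other models of sex, and each array left out. For normexp, local backgrounds marked as outliers were replaced by the array's median, a rule chosen after seeing the data. Figures were drawn with matplotlib 3.10.9.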

Additional observations from a re-analysis of the deposited data

Results flagged for a closer look

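In 140 groups of 6 arrays of 1 genotype, for 70 named genes and list members, the array farthest out was compared with its nearest neighbour by Dixon's test at its critical value for 6 arrays, which chance passes in about 1 of 20 groups. It passed in 13, and 11 of these were the third control XX array. That array was high among the controls for Defb7 (-0.99), Tchh (0.36), Col9a2 (0.62), Kcnab2 (-3.79), Trim28 (4.44), Dnmt1 (1.63), Uhrf1 (3.85), Igf1r (1.26) and Hk2 (1.25). It was low among them for Hadhb (3.62) and Sgce (3.55). In the mutants, the second XX array was high for Ntng1 (-0.35) and the first XX array low for Myl9 (6.62). In each of the 11 cases of the control array, its level lay on the side of the mutant mean. None of the 14 largest falls was among the genes so marked.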

How the results depend on the processing

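Alternatives moved the number of calls. Array weights, and leaving out the third control XX array, also moved the share of falls among them. Beside 214 calls (25 higher, 189 lower), 31 in both sexes and 0 for the difference between sexes, array weights gave 10642 (4435 and 6207), with 125 in both sexes; limma's weights stopped short of convergence, and the third control XX array had the lowest weight, 0.19. Brightness as a covariate gave 116 (8 and 108), with 1 difference between sexes. Slide as a block gave 58 (3 and 55), 6 in both sexes and 8 differences between sexes. A 1.5-fold threshold gave 27 (1 and 26), with 13 in both sexes, and no filter on dim probes 11 rises and 18 in both sexes. Leaving out 1 array gave 126 to 4826 calls, 9 to 2243 higher, 117 to 2583 lower, 16 to 24 in both sexes and 0 for the difference throughout. Falls were 88.3% of the calls, 58.3% with array weights and 53.5% without the third control XX array. Of 44 named genes tabulated, 17 were called under every alternative run on them, 14 under 13 alternatives and Tph2, Smtnl1 and Gpat2 under 12, since these 3 fail the filter for all 12 arrays; 32 were called whichever array was left out. Normexp reversed 3 rises, En2 (-0.069), Kcnab2 (-0.0196) and Slc25a31 (-0.0508), none called there; the cause was not tested. Without the filter the median of all features was -0.15 and with normexp -0.09. Replicate numbers did not pair the arrays (18 same-numbered pairs, r from -0.53 to 0.43, 6 over 0.1); the replicate block gave 175 calls, 158 of them among the 214.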
